A study of Mus musculus with 22 samples.

Results

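The genes described here are markers of striatal interneurons, the local neurons that make up a small minority of striatal cells. There were 8 genes on the list, matched by Ensembl identifier in a count table of 23119 genes, and 7 of them had a row. They were Chat (choline acetyltransferase, ENSMUSG00000021919), Slc5a7 (the high-affinity choline transporter, ENSMUSG00000023945), Pvalb (parvalbumin, ENSMUSG00000005716), Sst (somatostatin, ENSMUSG00000004366), Npy (neuropeptide Y, ENSMUSG00000029819), Nos1 (neuronal nitric oxide synthase, ENSMUSG00000029361) and Lhx6 (a LIM homeobox transcription factor, ENSMUSG00000026890). Slc18a3, the vesicular acetylcholine transporter, was not analysed here.

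Most striatal neurons are medium spiny projection neurons, and interneurons set when and how these fire. Cholinergic interneurons are large, tonically active cells that make acetylcholine with Chat and recover choline with Slc5a7. Fast-spiking interneurons contain parvalbumin, a calcium buffer, and inhibit medium spiny neurons near the cell body, whereas low-threshold spiking interneurons release somatostatin, neuropeptide Y and nitric oxide. Lhx6 directs the migration and fate of interneurons born in the medial ganglionic eminence, which include the parvalbumin and somatostatin cells.

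Polyadenylated and non-polyadenylated RNA left after ribosomal RNA removal was sequenced from ventral and dorsal striatum of adult male C57BL/6J mice. The oxycodone mice self-administered the opioid at 0.25 mg/kg per infusion in sessions of 4 h on 14 days, and the saline mice were yoked controls that received saline. There were 6 ventral libraries of each treatment and 5 dorsal libraries of each treatment, 22 in all. The labels do not say that each library came from a different mouse, so p-values measure the spread between these libraries. In dorsal striatum, 2 oxycodone libraries (replicates 2 and 3) share a title number, as do 2 saline libraries (replicates 2 and 3), and may come from the same mouse, so 5 libraries may hold 4 distinct samples. With the libraries that share a number summed, 0 of the 7 genes were called for oxycodone in dorsal striatum, beside 40 of 15053 genes tested. The other dorsal results below treat these libraries as separate.

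The ventral libraries held 8408829 to 11000345 counts and the dorsal libraries 11314079 to 21921963, so region and depth cannot be told apart. Both ventral libraries numbered 6 stood apart from the other 10 ventral libraries. In ventral saline replicate 6, a list of 10 medium spiny neuron markers averaged 3.26 in log2 CPM (counts-per-million, scaled for library size by TMM), against 7.25 to 7.71 in the other 10. The 9 cortical glutamatergic markers averaged 6.36 there, against 2.55 to 4.39, and the 4 ventral striatum markers 0.87, against 5.08 to 5.66. In ventral oxycodone replicate 6, the ventral striatum markers averaged 3.11, and choroid plexus and ependyma markers averaged 4.73, against 1.07 to 2.03 in the other 10 and 2.78 to 5.62 in the dorsal libraries. Its ventral striatum, medium spiny neuron (8.24), oligodendrocyte (8.14) and subcortical neuron (2.17) averages all lay outside the ranges of the other 10 ventral libraries. They lay within the dorsal ranges, of 2.35 to 4.08, 8.21 to 8.41, 7.95 to 8.53 and 1.66 to 2.26. In summed CPM, its oligodendrocyte and subcortical neuron markers also lay within the dorsal ranges. Its ventral striatum sum of 88.7 lay below the dorsal 139 to 197, and its medium spiny neuron sum of 5137 above the dorsal 4175 to 4972. The markers of the libraries labelled ventral saline replicate 6 and ventral oxycodone replicate 6 thus both go against their labels, and the main results below are given with and without them.

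In GRCm38 coordinates, Chat lies on chromosome 14 at 32408203-32465989, minus strand, and Slc18a3 lies inside one of its introns at 32462438-32464850 on the same strand. Whether reads from Slc18a3 were counted to Chat is not known. Slc5a7 is on chromosome 17 at 54273590-54299034, Pvalb on chromosome 15 at 78191114-78206400, Sst on chromosome 16 at 23889573-23890958 and Lhx6 on chromosome 2 at 36081953-36105408, all on the minus strand. Npy is on chromosome 6 at 49822710-49829507 and Nos1 on chromosome 5 at 117781032-117958840, both on the plus strand.

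Somatostatin is the textbook example of a gene with a cyclic AMP response element in its promoter, so that element is shown beside the closest matches in the promoters of Chat and Nos1. RefSeq promoter windows (GRCm38.p6) from 250 bases before to 50 bases after a start site were searched for TGACGTCA, which reads the same on both strands, and for the shorter TGACG and its reverse complement CGTCA, which the full element also contains. In the stretches of 30 bases below, written 5′ to 3′ on the gene's own strand, capitals mark the match.
Sst, chr16:23890874-23890903: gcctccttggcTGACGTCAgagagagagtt
Chat, chr14:32466063-32466092: gtccaatctcaaCGTCAccaccacctccaa
Nos1, chr5:117866697-117866726: aaaccagccatgCGTCAggcttggcttcag
Between the end of the match and the start site lay 40 bases in Sst, 166 in Chat and 125 in Nos1. The Nos1 window (117866589-117866888) lies well inside the span of that gene given above, which begins at 117781032. Of all 32851 windows, 588 (1.79%) held the full element and 6837 (20.8%) held at least the shorter one. Of 11 windows of the 8 listed genes, 1 held the full element, that of Sst, and 4 held at least the shorter one, the windows of Sst, Chat, Nos1 and Slc18a3. A match is a description of these letters and says nothing about binding.

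Levels were compared between genes as CPM per kilobase of exon (RPKM), since Nos1 has 11151 exonic bases and Npy 566. In the 10 dorsal libraries, mean levels ran in the order Sst 146 ± 18.2 RPKM (SD, n = 10), Npy 94.5 ± 17.2, Pvalb 18.5 ± 4.46, Chat 9.85 ± 1.22, Nos1 7.61 ± 0.87, Slc5a7 5.48 ± 1.05 and Lhx6 1.42 ± 0.34. Sst and Npy overlapped over libraries (118 to 174 against 73.2 to 128 RPKM), as did Pvalb and Chat, Chat and Nos1, and Nos1 and Slc5a7, whereas Npy and Pvalb, and Slc5a7 and Lhx6, did not. In the 10 ventral libraries without the 2 numbered 6, Sst averaged 295 ± 18.5 RPKM and Npy 98.5 ± 7.95, with no overlap. Nos1 came next at 8.91 ± 1.54 RPKM, below every Npy value, then Pvalb at 6.08 ± 3.50, Chat at 4.60 ± 1.36, Slc5a7 at 3.48 ± 1.04 and Lhx6 at 2.31 ± 0.44, and from Nos1 on each overlapped its neighbour. Thus the peptide genes led in both regions, and Pvalb stood above Nos1 on average in dorsal libraries and below it in these 10 ventral libraries. Over all 12 ventral libraries that order did not hold, with means of 8.45 RPKM for Pvalb and 8.42 for Nos1.

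**Figure D1:**
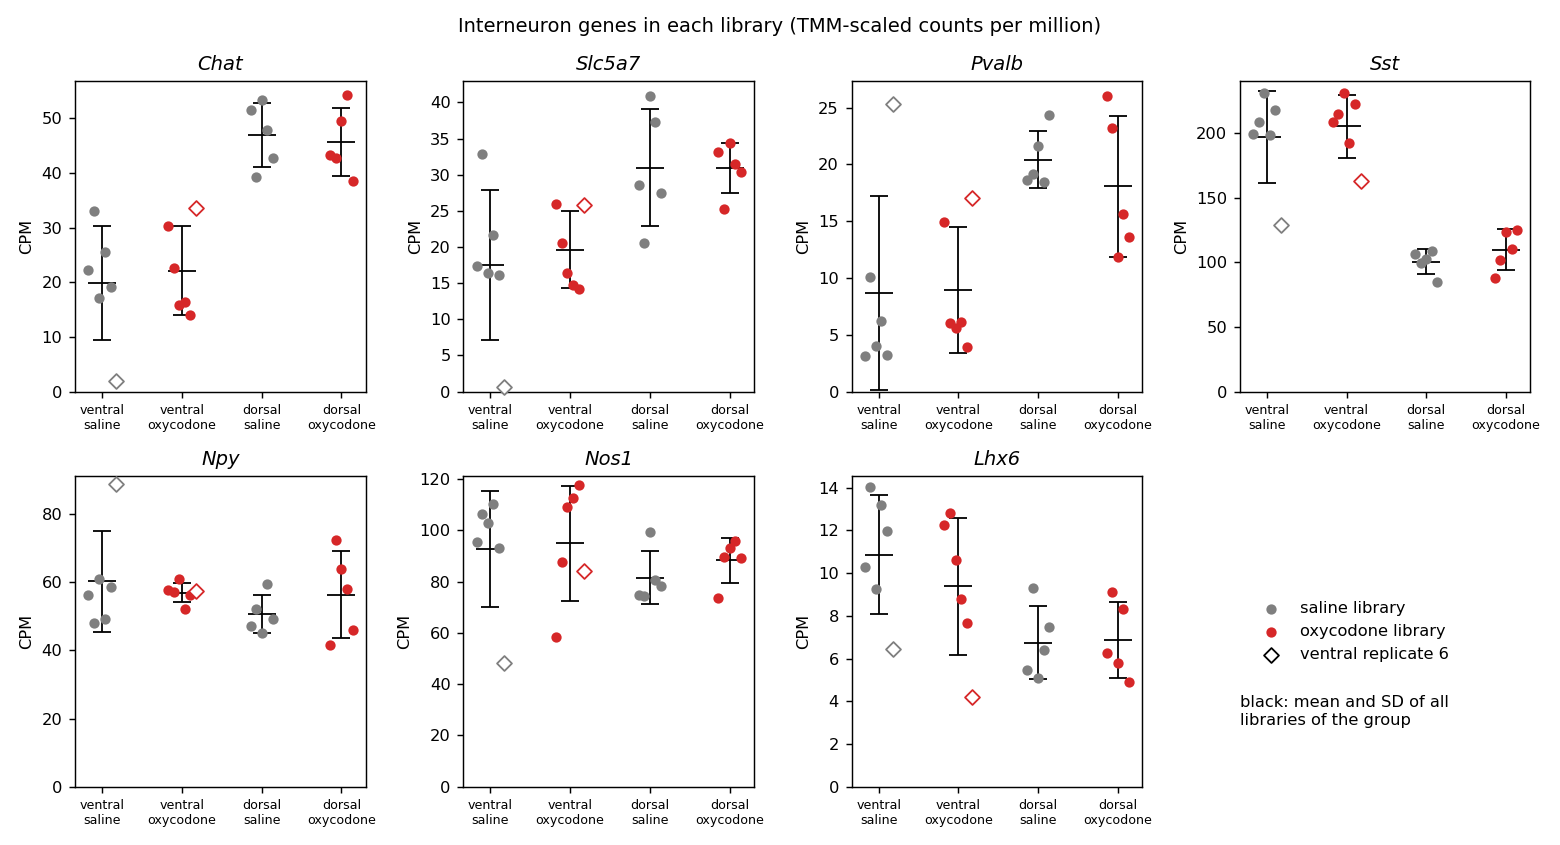
Level of each interneuron gene in each of the 22 libraries, in CPM after TMM scaling on linear axes; the 4 groups are on the x axis, points are libraries and black bars are the mean and SD of all libraries of a group. The Chat and Sst points of the dorsal and ventral libraries do not overlap within either treatment, and the 2 ventral libraries numbered 6 (open diamonds) lie away from their groups for several genes.

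The first question was whether oxycodone self-administration changed these genes within a region. In neither region did any of the 7 genes pass the test. Saline and oxycodone libraries overlapped for all 7 in both regions, and how many of all genes overlapped likewise was not counted. With edgeR's quasi-likelihood test and Benjamini-Hochberg adjustment over all genes tested, 0 of 7 had an adjusted p under 0.05 in ventral striatum, where 0 of 14116 genes (0%) did. In dorsal striatum 0 of 7 did, where 30 of 14595 genes (0.206%) did. None of the 7 had an unadjusted p under 0.05 in either region, although 1289 genes did in ventral and 823 in dorsal striatum. DESeq2, which called 38 genes in ventral and 86 in dorsal striatum, and limma-voom, which called 61 and 32, also called none of the 7.

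Among the cholinergic genes, ventral Chat ran from 1.89 through a median of 20.7 to 33.1 CPM in saline and from 14.0 through 19.5 to 33.5 CPM in oxycodone. The lowest saline value was replicate 6, with 20 counts of Chat, and the other 5 saline libraries began at 17.1 CPM. The log2 difference, oxycodone minus saline, was 0.18 (SE 0.44, 95% interval -0.77 to 1.13, adjusted p = 0.92 by edgeR). Without the 2 libraries numbered 6 it was -0.23 (interval -0.74 to 0.27), so the sign rested on those libraries. Ventral Slc5a7 ran from 0.568 through 16.8 to 32.9 CPM in saline and from 14.2 through 18.5 to 25.9 CPM in oxycodone. Its difference was 0.19 (interval -0.88 to 1.25), and -0.17 (interval -0.67 to 0.32) without them.

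In dorsal striatum the cholinergic genes were measured more tightly. Chat was at 51.5, 39.2, 53.5, 47.8 and 42.8 CPM in the saline libraries and at 43.3, 42.8, 49.6, 54.2 and 38.5 CPM in the oxycodone libraries. The highest and the lowest of the 10 were both oxycodone libraries, and the log2 difference was -0.04 (SE 0.13, interval -0.30 to 0.22). Slc5a7 was at 28.6, 20.6, 40.9, 37.3 and 27.5 CPM in saline and 33.2, 25.3, 34.3, 31.4 and 30.4 CPM in oxycodone. All oxycodone values lay within the saline range, and the difference was -0.01 (interval -0.34 to 0.33).

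Pvalb, the calcium buffer of fast-spiking cells, was the most variable of the 7 in ventral striatum, with a coefficient of variation of 78.1% over 12 libraries. Ventral saline ran from 3.15 through 5.12 to 25.3 CPM and ventral oxycodone from 3.92 through 6.08 to 17.0 CPM, and both maxima were replicate 6. The log2 difference was 0.05 (interval -1.15 to 1.24), and 0.47 (interval -0.45 to 1.39) without them. In dorsal striatum Pvalb was at 18.6, 19.1, 21.6, 18.5 and 24.3 CPM in saline and 26.0, 23.2, 11.9, 15.6 and 13.6 CPM in oxycodone. Of the 5 oxycodone libraries, 3 lay below every saline library and 1 above every one, with a difference of -0.17 (SE 0.20, interval -0.58 to 0.23).

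The 3 low dorsal oxycodone libraries carried the letter P in their titles, whose meaning the labels do not give, and the 2 high ones did not. Among titles with P alone the Pvalb difference was -0.55 (SE 0.24, adjusted p = 1.00 by edgeR), and among titles without it 0.25 (SE 0.26). With the letter as a covariate the difference was -0.14 (SE 0.18). The part of the title letter in the spread of Pvalb was not tested.

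Of the genes of low-threshold spiking cells, Sst was the steadiest in ventral striatum. It ran from 129 through 204 to 231 CPM in saline and from 163 through 212 to 231 CPM in oxycodone, with replicate 6 the lowest of each. The log2 difference was 0.07 (SE 0.12, interval -0.20 to 0.34), and 0.03 (interval -0.11 to 0.17) without them. In dorsal striatum Sst was at 106.9, 99.8, 102.9, 108.8 and 85.2 CPM in saline and 87.8, 102.2, 124, 110.6 and 125.2 CPM in oxycodone. The 3 libraries above every saline library were those with P in the title, and the difference was 0.13 (interval -0.08 to 0.33).

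Npy had the narrowest group of all, ventral oxycodone, with 52.1 to 60.9 CPM and a coefficient of variation of 5.00%. Ventral saline ran from 48.1 through 57.4 to 88.7 CPM, where the top value was replicate 6 and the other 5 ended at 61.0 CPM. The log2 difference was -0.07 (interval -0.36 to 0.21), and 0.06 (interval -0.10 to 0.23) without them. Dorsal Npy was at 47.2, 52.0, 45.1, 59.5 and 49.3 CPM in saline and 41.4, 72.3, 63.8, 58.1 and 46.1 CPM in oxycodone, so that oxycodone libraries held both extremes. Its difference was 0.16 (interval -0.12 to 0.43).

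Nos1, which makes nitric oxide, ran from 48.4 through 99.3 to 110.2 CPM in ventral saline and from 58.5 through 98.4 to 117.6 CPM in ventral oxycodone. The log2 difference was 0.05 (interval -0.39 to 0.49), and -0.05 (interval -0.41 to 0.30) without the libraries numbered 6. In dorsal striatum it was at 74.6, 74.4, 99.5, 80.6 and 78.4 CPM in saline and 73.5, 89.5, 93.3, 95.8 and 89.3 CPM in oxycodone. There, 4 of 5 oxycodone libraries lay above 4 of 5 saline libraries, but the remaining saline library was the highest of the 10 and the remaining oxycodone library the lowest, and the difference was 0.12 (interval -0.09 to 0.33).

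Lhx6 had the lowest level per length, with 39 to 161 counts per library. It ran from 6.44 through 11.1 to 14.0 CPM in ventral saline and from 4.20 through 9.71 to 12.8 CPM in ventral oxycodone, a log2 difference of -0.20 (interval -0.72 to 0.33), and -0.17 (interval -0.50 to 0.17) without the libraries numbered 6. In dorsal striatum it was at 5.5, 9.3, 5.1, 6.4 and 7.5 CPM in saline and 6.3, 9.1, 5.8, 8.3 and 4.9 CPM in oxycodone, a difference of 0.03 (interval -0.56 to 0.63). The groups overlapped in both regions.

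**Figure D2:**
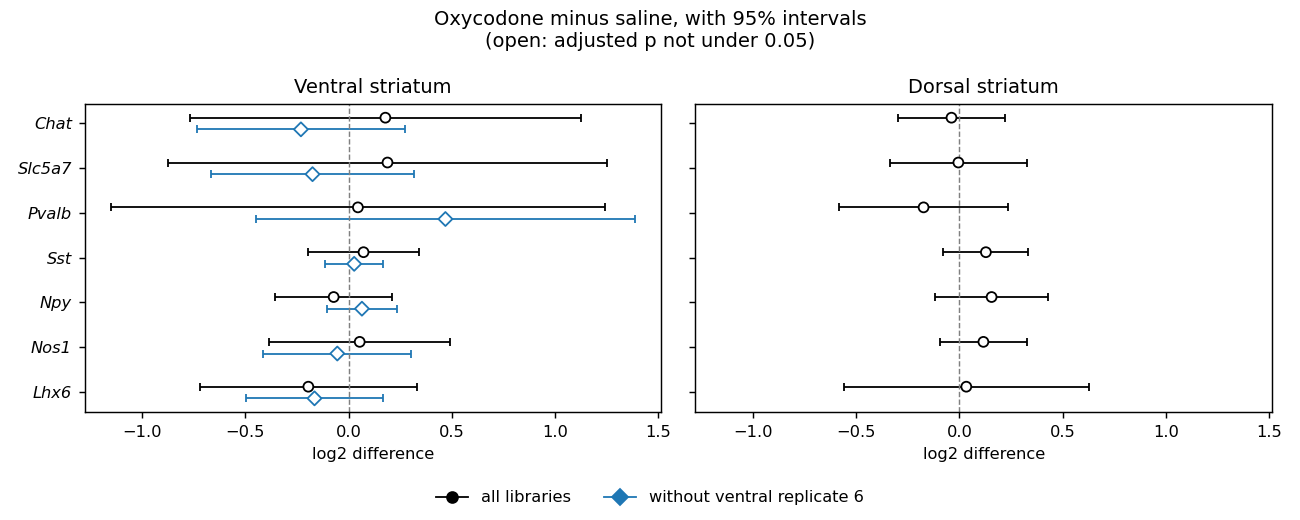
Log2 difference between oxycodone and saline libraries for each gene, in ventral (left) and dorsal (right) striatum, with 95% intervals from edgeR; black circles use all libraries and blue diamonds leave out both ventral libraries numbered 6. Every interval crosses 0, and the ventral intervals of Chat, Slc5a7 and Pvalb are the widest.

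The difference in oxycodone effect between regions was tested as an interaction over all 22 libraries. It was called for 0 of 7 genes by edgeR, DESeq2 and limma-voom, against 0 of 14938 genes (0%), and for 0 of 7 at an unadjusted p under 0.05. The values, dorsal effect minus ventral effect, ran from -0.22 for Pvalb to 0.24 for Lhx6 on the log2 scale, with intervals as wide as -1.60 to 1.16 for Pvalb and as narrow as -0.28 to 0.41 for Sst. Without the ventral libraries numbered 6, 0 of 7 were called again, and the values ran from -0.66 for Pvalb (interval -1.60 to 0.29) to 0.19 for Lhx6 (interval -0.42 to 0.79).

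Lists of other genes of these cells were read in the same fits, and 0 of their genes passed the test in either region. Of 11 cholinergic companions (such as Ache, the acetylcholine-degrading enzyme, and Slc10a4, a vesicular transporter-like protein), 10 could be tested in ventral striatum, with a median log2 difference of -0.19, against -0.003 over all genes tested. All 10 were below 0, from -0.81 to -0.002, but 0 had an unadjusted p under 0.05. Without both libraries numbered 6 the median was -0.42 with all 10 again below 0, and 3 had an unadjusted p under 0.05 and 0 an adjusted one. In dorsal striatum the median of 10 was -0.05, with 4 above 0.

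Of the GABA interneuron companions, 23 were tested in ventral striatum, with a median of -0.15 (-0.011 without the libraries numbered 6), and 25 in dorsal striatum, with a median of 0.02. The lowest unadjusted p in the dorsal list was that of Cort, which encodes cortistatin, a relative of somatostatin. Cort was at 0.57 ± 0.53 CPM in oxycodone and 2.65 ± 1.96 CPM in saline (SD, n = 5 each), a log2 difference of -2.22 (SE 0.74, adjusted p = 0.42 by edgeR). Of the receptors for somatostatin, neuropeptide Y and nitric oxide, 10 were tested in ventral striatum (median -0.10, and -0.054 without the libraries numbered 6) and 11 in dorsal striatum (median -0.08). Npy1r, a receptor for neuropeptide Y, had the lowest p among them in ventral striatum, at 15.2 ± 2.54 CPM in oxycodone and 18.4 ± 3.62 CPM in saline (adjusted p = 0.60 by edgeR).

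Between regions, several of these genes passed the test. Chat was about 2-fold higher in dorsal striatum and Sst about 2-fold lower, in saline and oxycodone mice alike. Neither gene's dorsal libraries overlapped its ventral ones, and how many of all genes likewise showed no overlap was not counted. Slc5a7 and Pvalb were called higher in dorsal striatum in oxycodone mice, and Lhx6 lower in saline mice. Npy was called in neither treatment. The interaction above called none of the 7, so the regional differences are not shown to depend on treatment. In bulk tissue, more cells of a type and more RNA per cell cannot be told apart.

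In saline libraries, 3 of 7 genes were called, beside 6616 of 14433 genes tested (45.8%). Of these, 1 was higher in dorsal striatum (23.6% of all genes were) and 2 were lower (22.3% were). In oxycodone libraries 4 of 7 were called, beside 6785 of 14375 (47.2%), with 3 higher (23.5% of all genes) and 1 lower (23.7%). The share of called members was thus near that of all genes. Without the ventral libraries numbered 6, 6 of 7 were called in saline (50.7% of genes) and 5 of 7 in oxycodone (47.5% of genes). Requiring a fold of at least 1.5 in edgeR's glmTreat left Sst alone in each treatment, where 12.5% and 9.82% of all genes passed.

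Chat averaged 47.0 ± 5.94 CPM (SD, n = 5) in dorsal and 19.8 ± 10.4 CPM (n = 6) in ventral saline libraries, a log2 difference of 1.26 (SE 0.45, adjusted p = 0.040 by edgeR), or 2.39-fold. The lowest dorsal library, at 39.2 CPM, lay above the highest ventral one, at 33.1 CPM. Leaving out 1 library at a time kept the adjusted p under 0.05 in 3 of 11 cases, those without ventral saline replicate 2, ventral saline replicate 6 or dorsal saline replicate 2, and the other 8 reached up to 0.078. Without ventral saline replicate 6 the difference was 1.03 (adjusted p = 2.4e-05). In oxycodone libraries Chat averaged 45.7 ± 6.20 CPM in dorsal and 22.1 ± 8.18 CPM in ventral striatum, a difference of 1.03 (SE 0.21, adjusted p = 0.0011 by edgeR), called in 11 of 11 such cases.

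Slc5a7 had a smaller regional difference than Chat in both treatments, although the 2 differences were not tested against each other. It averaged 31.0 ± 8.13 CPM in dorsal and 17.5 ± 10.4 CPM in ventral saline libraries, a log2 difference of 0.84 that was not called (adjusted p = 0.25 by edgeR). Without ventral saline replicate 6 it was 0.60 and was called (adjusted p = 0.021). In oxycodone libraries it averaged 30.9 ± 3.50 CPM against 19.6 ± 5.34 CPM, a difference of 0.64 (SE 0.16, adjusted p = 0.0038), and 4 of 5 dorsal libraries lay above every ventral one. As a ratio that does not depend on library scaling, Slc5a7 counts per Chat count were 0.526 to 0.789 in the 10 dorsal libraries and 0.778 to 1.04 in the 10 ventral ones, with ventral oxycodone replicate 6 at 0.772 and ventral saline replicate 6 at 0.300.

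Pvalb averaged 20.4 ± 2.53 CPM in dorsal and 8.66 ± 8.55 CPM in ventral saline libraries, a log2 difference of 1.23 (adjusted p = 0.060 by edgeR). Ventral saline replicate 6, at 25.3 CPM, lay above every dorsal saline library. Without it the ventral libraries ended at 10.1 CPM, below the lowest dorsal value of 18.5 CPM, and the difference was 1.97, or 3.91-fold (adjusted p = 7.4e-06). In oxycodone libraries Pvalb averaged 18.1 ± 6.21 CPM against 8.94 ± 5.56 CPM, a difference of 1.00 (SE 0.38, adjusted p = 0.045). That call was lost in 7 of 11 cases when 1 library was left out, with adjusted p up to 0.096. It held without ventral oxycodone replicate 1 or 6 and without dorsal oxycodone replicate 3 or 5.

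Sst had the firmest regional difference. It averaged 101 ± 9.36 CPM in dorsal and 198 ± 35.7 CPM in ventral saline libraries, a log2 difference of -0.96 (SE 0.13, adjusted p = 2.4e-05 by edgeR), or 1.95-fold higher in ventral striatum. The highest dorsal library, at 109 CPM, lay below the lowest ventral one, replicate 6, at 129 CPM. In oxycodone libraries it averaged 110 ± 15.6 CPM against 205 ± 24.6 CPM, a difference of -0.92 (SE 0.10, adjusted p = 3.5e-06). It was called in all 11 cases with 1 library left out in each treatment, with differences from -1.04 to -0.91 in saline and from -0.96 to -0.82 in oxycodone.

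Npy and Nos1, which low-threshold spiking cells share with Sst, were not called in either treatment when all libraries were used. Npy averaged 50.6 ± 5.57 CPM in dorsal and 60.3 ± 14.8 CPM in ventral saline libraries (log2 difference -0.25, interval -0.56 to 0.06) and 56.4 ± 12.7 against 56.9 ± 2.84 CPM in oxycodone libraries (-0.03, interval -0.29 to 0.23). Nos1 averaged 81.5 ± 10.4 against 92.8 ± 22.7 CPM in saline (-0.18, interval -0.54 to 0.19) and 88.3 ± 8.67 against 94.97 ± 22.5 CPM in oxycodone (-0.12, interval -0.44 to 0.20). Without ventral saline replicate 6, Nos1 was called lower in dorsal saline libraries at -0.29 (adjusted p = 0.011 by edgeR). Sst counts per Npy count were 1.41 to 2.72 in the 10 dorsal libraries and 3.55 to 4.34 in the 10 ventral ones, without overlap. Ventral oxycodone replicate 6 lay between these ranges at 2.83, and ventral saline replicate 6 within the dorsal range at 1.45.

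Lhx6 averaged 6.74 ± 1.70 CPM in dorsal and 10.9 ± 2.80 CPM in ventral saline libraries, a log2 difference of -0.68 (SE 0.23, adjusted p = 0.024 by edgeR). The call was lost in 6 of 11 cases with 1 library left out, with adjusted p up to 0.062, and was kept without ventral saline replicate 1, 3 or 6 or dorsal saline replicate 2 or 5. In oxycodone libraries it averaged 6.88 ± 1.77 against 9.38 ± 3.21 CPM, a difference of -0.46 that was not called (adjusted p = 0.15), and -0.59 without ventral oxycodone replicate 6 (adjusted p = 0.030). The differences of Lhx6 and Pvalb, both of the medial ganglionic eminence lineage, thus had opposite signs in each treatment. With all libraries, Lhx6 but not Pvalb was called in saline, and Pvalb but not Lhx6 in oxycodone. Both were called in each treatment only without ventral replicate 6. Pvalb counts per Lhx6 count were 1.87 to 4.25 in the 10 dorsal libraries and 0.270 to 1.22 in the 10 ventral ones, and 3.93 and 4.05 in the ventral saline and oxycodone libraries numbered 6.

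**Figure D3:**
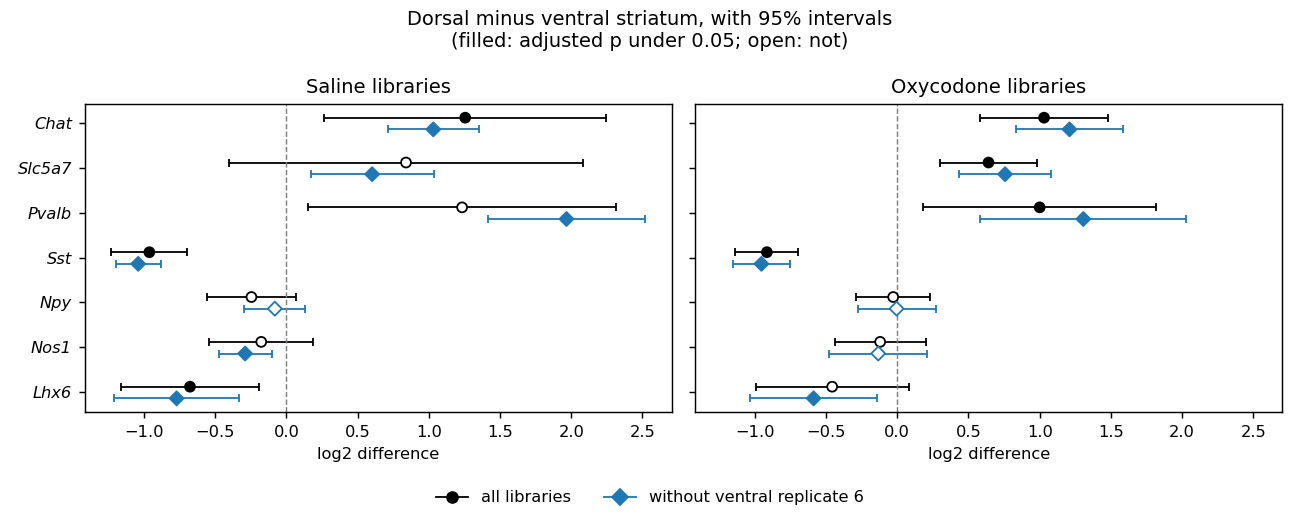
Log2 difference between dorsal and ventral libraries for each gene, in saline (left) and oxycodone (right) libraries, with 95% intervals from edgeR; filled symbols have an adjusted p under 0.05, black circles use all libraries and blue diamonds leave out the ventral library numbered 6. Chat, Slc5a7 and Pvalb lie to the right of 0 and Sst and Lhx6 to the left in both panels, and ventral saline replicate 6 sets the width of the black intervals for Chat, Slc5a7 and Pvalb in saline.

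Markers of other cells also moved with region. Septal, pallidal and other subcortical neuron markers, a list of 6, averaged 2.39 to 3.54 log2 CPM in the 10 ventral libraries and 1.66 to 2.26 in the dorsal ones. Cortical glutamatergic markers averaged 2.55 to 4.39 and 2.01 to 3.43, and oligodendrocyte markers 6.90 to 7.83 and 7.95 to 8.53. In summed CPM, the subcortical list came to 61.6 to 135 in the 10 ventral libraries and 29.8 to 51.3 in the dorsal ones, and none of its markers was at 0 in any library. The part of these cells in the regional differences was not tested.

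Among cholinergic companions, 3 of 10 tested genes were called in each treatment, beside 45.8% of all genes in saline and 47.2% in oxycodone. Without the ventral libraries numbered 6, 5 of 10 were called in saline, 1 higher and 4 lower, and 4 of 10 in oxycodone, 3 higher and 1 lower. Slc10a4 was called higher in oxycodone libraries, at 12.1 ± 1.05 against 8.16 ± 2.15 CPM, and differed by 0.30 on the log2 scale in saline libraries without being called. Chrm2, the muscarinic autoreceptor of cholinergic neurons that other neurons carry too, was lower in dorsal striatum, unlike Chat, at 8.37 ± 3.24 against 16.5 ± 3.99 CPM in saline and 9.31 ± 2.46 against 14.2 ± 4.68 CPM in oxycodone. Zic4, a transcription factor of septal progenitors, was lower in dorsal saline libraries, at 1.09 ± 0.64 against 3.12 ± 1.02 CPM. The list's median log2 difference was -0.12 in saline and -0.05 in oxycodone, against -0.01 over all genes in both, and -0.37 and -0.06 without the libraries numbered 6. The companions were therefore split in direction, and Ache was not called at 0.08 and 0.13.

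Of the GABA interneuron companions that were called, more were lower than higher in dorsal striatum. In saline libraries 10 of 23 were called, beside 45.8% of all genes, 2 higher and 8 lower, with a median of -0.62. Without ventral saline replicate 6, 12 were called, 4 higher and 8 lower, with a median of -0.39 and 10 of 23 above 0. In oxycodone libraries 14 of 23 were called, beside 47.2% of all genes, 4 higher and 10 lower, with a median of -0.35, and the same numbers without ventral oxycodone replicate 6, with a median of -0.32. Erbb4, the neuregulin receptor of cortical and striatal interneurons, was at 81.1 ± 12.7 CPM in dorsal and 187 ± 16.2 CPM in ventral saline libraries (log2 difference -1.20, adjusted p = 5.0e-07 by edgeR) and differed by -1.02 in oxycodone libraries. Sox6, a transcription factor of the Lhx6 lineage, was lower as Lhx6 was, at 17.8 ± 3.47 against 34.9 ± 5.06 CPM in saline and 20.5 ± 3.24 against 30.7 ± 2.57 CPM in oxycodone. Nxph1, a synaptic neurexin ligand, was at 11.2 ± 2.09 against 22.8 ± 2.19 CPM in saline.

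Syt2, a synaptotagmin of fast-releasing terminals including those of parvalbumin cells, was higher in dorsal striatum, as Pvalb was on average. It was at 36.7 ± 5.80 against 15.6 ± 4.43 CPM in saline (2.38-fold, adjusted p = 4.5e-05 by edgeR), and its log2 difference in oxycodone libraries was 0.86. Kcnc1, the fast potassium channel that parvalbumin cells use, was lower instead, at 32.5 ± 4.92 against 50.1 ± 6.89 CPM in oxycodone (adjusted p = 0.00035). Slc32a1, the vesicular GABA transporter of all GABA neurons, medium spiny neurons included, was at 171 ± 5.27 against 78.9 ± 8.08 CPM in oxycodone (2.15-fold).

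Of the receptors, 3 of 10 were called in each treatment with all libraries, beside 45.8% and 47.2% of all genes, and these were lower in dorsal striatum. The medians were -0.58 and -0.36. Without ventral saline replicate 6, 3 were called in saline, 2 lower and 1 higher (Gucy1b1 at 0.17, adjusted p = 0.044 by edgeR), with a median of -0.49. Npy1r was at 9.26 ± 3.71 against 18.4 ± 3.62 CPM in saline and 7.19 ± 2.11 against 15.2 ± 2.54 CPM in oxycodone. Npy2r, the presynaptic neuropeptide Y receptor, was at 3.04 ± 1.32 against 10.3 ± 4.65 CPM in saline and 4.42 ± 1.04 against 7.95 ± 3.03 CPM in oxycodone. Of the somatostatin receptors, Sstr1 was called in saline (2.3 ± 1.29 against 5.10 ± 2.15 CPM) and Sstr2 in oxycodone (5.97 ± 3.52 against 12.0 ± 3.25 CPM). The Sstr1 call was lost without ventral saline replicate 6 (adjusted p = 0.067 by edgeR). The subunits of the nitric oxide receptor, Gucy1a1, Gucy1a2 and Gucy1b1, were called in neither treatment with all libraries, with differences from -0.07 to 0.18.

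**Figure D4:**
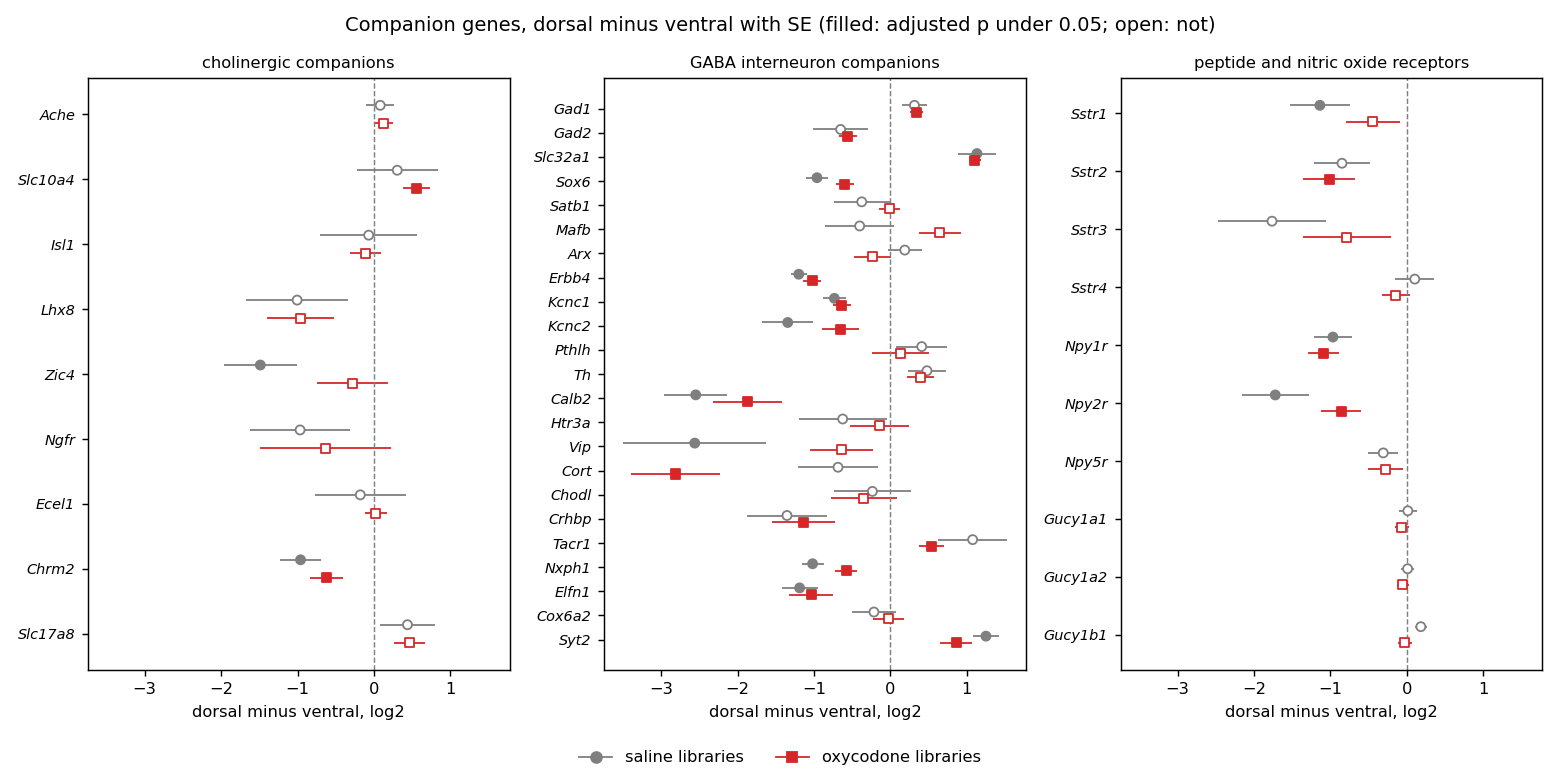
Log2 difference between dorsal and ventral libraries, with SE, for companion genes of cholinergic cells (left), GABA interneurons (middle) and receptors (right); grey circles are saline and red squares oxycodone libraries, and filled symbols have an adjusted p under 0.05 (1 cholinergic companion is not drawn). Syt2 and Slc32a1 lie to the right of 0 with filled symbols in both treatments, and Erbb4, Sox6, Nxph1, Npy1r and Npy2r to the left.

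Within a region, the 7 genes were compared pairwise over libraries of both treatments on the log2 CPM scale, giving 21 pairs in each region and 42 permutation tests. Of these, 2 had an adjusted p under 0.05 for Pearson's r, 1 in each region. In the 12 ventral libraries Chat and Slc5a7 rose and fell together, with r = 0.98 and Spearman's rho = 0.93 (permutation p = 1.0e-05 and 3.0e-05, adjusted p = 0.00042 and 0.0013), where 1.0e-05 is the smallest p that 100000 permutations can give. Leaving out the 2 libraries farthest from the median of Chat, which were those numbered 6, gave r = 0.95. Within the 8 libraries of lane 1, r was 0.94 and rho 0.93 (permutation p = 0.00016 and 0.0025), and lane 2 held 4 libraries, too few for a value. In the 10 dorsal libraries r for this pair was 0.62 (permutation p = 0.057, adjusted p = 0.22).

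In the dorsal libraries Pvalb and Sst ran in opposite directions, with r = -0.92 and rho = -0.94 (permutation p = 0.00022 and 0.00018, adjusted p = 0.0046 and 0.0038, n = 10). Without the 2 libraries farthest from the median of Pvalb, r was -0.84 (permutation p = 0.0052, adjusted p = 0.043). The libraries with P in the title held 11.9 to 21.6 CPM of Pvalb and 103 to 125 CPM of Sst, and those without it 18.6 to 26.0 CPM of Pvalb and 85.2 to 107 CPM of Sst. Each of these sets has 5 libraries, too few for a correlation of its own, and the part of the title letter in the relation was not tested. In the 12 ventral libraries r for Pvalb and Sst was -0.76 (permutation p = 0.0038, adjusted p = 0.053), and -0.23 without the 2 numbered 6, so that relation rested on those libraries.

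Without the ventral libraries numbered 6, 3 ventral pairs had an adjusted p under 0.05. Chat and Slc5a7 were at r = 0.95, Chat and Lhx6 at 0.85 (permutation p = 0.0024, adjusted p = 0.033, n = 10), and Slc5a7 and Lhx6 at 0.82 (permutation p = 0.0038, adjusted p = 0.040, n = 10). Without the 2 of these 10 libraries farthest from the median of Chat, Chat and Lhx6 were at 0.72 and no longer called (permutation p = 0.046, adjusted p = 0.24). Without the 2 farthest from the median of Slc5a7, Slc5a7 and Lhx6 were at 0.87 and likewise not called (permutation p = 0.0040, adjusted p = 0.052). Over all 12 ventral libraries, Chat and Lhx6 were at 0.34 and Slc5a7 and Lhx6 at 0.38, not called. In the dorsal libraries the same Lhx6 pairs were at -0.24 and -0.69, not called, and Chat and Lhx6 were at -0.91 without the 2 libraries farthest from the median of Chat (permutation p = 0.0017, adjusted p = 0.033). The relation of Chat and Lhx6 thus depended on which libraries were used, and its sign differed between regions. Sst and Npy are both made by low-threshold spiking cells. They were at r = 0.71 in those 10 ventral libraries (permutation p = 0.024, adjusted p = 0.15). In the dorsal libraries they were at 0.34 (permutation p = 0.33, adjusted p = 0.47).

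**Figure D5:**
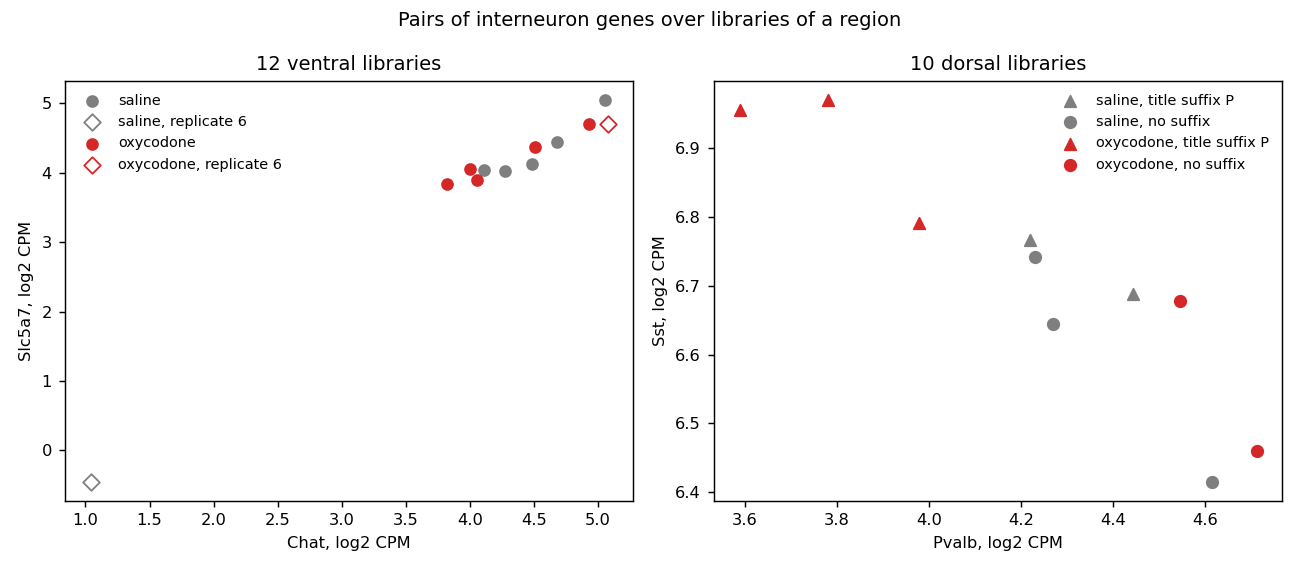
Left, Slc5a7 against Chat in the 12 ventral libraries, and right, Sst against Pvalb in the 10 dorsal libraries, both axes in log2 CPM; grey is saline and red oxycodone, open diamonds are the ventral libraries numbered 6 and triangles the dorsal libraries with P in the title. The ventral points lie along a rising line that spans both treatments, and the dorsal points along a falling one with 3 oxycodone libraries at its upper left end.

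Of 13727 genes with a mean of at least 1 CPM, those most like each member were ranked by the correlation of log2 CPM after subtracting each group's mean, over all 22 libraries. These values describe shared deviations of libraries, which also share depth and tissue content, and carry no test. Slc5a7 was the gene most like Chat (r = 0.97) and Chat the one most like Slc5a7, and without the 2 libraries numbered 6 r between them was 0.85. For Chat the next were Galnt13 (0.96) and Klhl13 (0.96), and for Slc5a7 Gprin3 (0.97) and Penk (0.97), the enkephalin precursor of medium spiny neurons. Without those 2 libraries Galnt13, Klhl13, Gprin3 and Penk were at 0.69, 0.64, 0.70 and 0.70.

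The other members had no fellow member at the top of their ranking. For Pvalb the leading genes were Stau2 (0.87) and Stk39 (0.87), for Sst Hpcal1 (0.87) and Stx16 (0.85), and for Npy Wls (0.79) and Nr2f1 (0.78). For Nos1 they were Cacna1e (0.90), a voltage-gated calcium channel, and Neto1 (0.89), and for Lhx6 Ankrd55 (0.89) and Slc6a11 (0.84), a GABA transporter. Over 20 libraries Cacna1e stayed at 0.82 and Ankrd55 at 0.83, whereas Hpcal1 was at 0.63 and Wls at 0.68.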

How the data were processed

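RNA was measured in 22 mouse striatal libraries. Per the labels, total RNA was made into stranded, ribosomal-RNA-depleted libraries, and the submitters' processing notes name CASAVA 1.8.2, STAR 2.3 and featureCounts; strand setting and treatment of multiply mapped reads are not given in the sources used here. The authors deposited whole-number counts per gene. Depth is given above, and intervals cover the spread between libraries.

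Each comparison was fitted to the counts of its own libraries with edgeR 4.0.16 (TMM scaling, filterByExpr, robust quasi-likelihood test, Benjamini-Hochberg adjustment, R 4.3.3); the interaction used all 22. Levels are CPM after 1 TMM scaling over all libraries, and RPKM used exon lengths of GENCODE M21. Log2 CPM used a prior count of 2. DESeq2 1.42.0 and limma 3.58.1 were alternatives, with other scalings, filters, lanes, titles and each library left out; the script was tested on simulated counts. Companions were named by lowest p in each list; 1 of them is counted but not reported here. Members and lists were chosen with earlier results of these data known.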

Additional observations from a re-analysis of the deposited data

Results flagged for a closer look

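Of 28 groups checked (7 genes in 4 groups of 5 or 6 libraries), a library lay far from the others of its group in 6 cases, where chance alone gives about 5% of groups. In 4 of them it was ventral saline replicate 6, which had the highest Pvalb (25.3 CPM) and Npy (88.7 CPM) and the lowest Sst (129 CPM) and Nos1 (48.4 CPM) of its group. The other 2 were Nos1 in dorsal striatum, where saline replicate 3 was the highest of its group at 99.5 CPM and oxycodone replicate 1 the lowest of its group at 73.5 CPM. That oxycodone library lay below every saline library and that saline library above every oxycodone library, against the direction of the other libraries.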

How the results depend on the processing

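Regional differences of Chat, Slc5a7, Pvalb, Sst and Lhx6 kept their direction under every alternative run, and no member was called for oxycodone under any. Slc5a7, Chat, Pvalb and Lhx6 had the lowest counts in any library, 6 to 39, and the largest SE of the ventral oxycodone effect with all libraries. The 6 counts of Slc5a7 and 20 of Chat were in ventral saline replicate 6, whose total of 11000345 counts was the highest of the ventral libraries. Of 10 same-numbered pairs of ventral and dorsal libraries, 1 had deviations correlated above 0.1 (median 0.03), and of 50 other pairs, 2 did (median -0.0014). Such values cannot tell whether libraries that share a number came from the same mouse. With the title number as a replicate block, 5 members were called between regions in saline, beside 5861 of 14499 genes. In the same libraries with no block 6 were, beside 6484 of 14499 genes. In oxycodone 5 were called with the block, beside 6657 of 14799 genes, and 5 without it, beside 6391 of 14799. Members called in saline, 3 in the report, were 5 by limma-voom (7856 of 14433 genes) and 6 without ventral replicate 6 (7227 of 14256). They were 1 with the fold rule (1810 of 14433), and 1 to 6 with 1 library left out, where 5929 to 7227 genes were called. In oxycodone the fold rule left 1 (1412 of 14375 genes). Called pairs, 2 in the report, were 4 without the ventral libraries numbered 6 and 6 without the 2 libraries farthest on the x axis.

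None of the effects that turned was called; the cause was not tested. The ventral oxycodone effect (log2) turned to -0.23 for Chat, -0.091 for Slc5a7 and 0.095 for Npy by limma-voom; to -0.23, -0.17 and 0.065, and -0.055 for Nos1, without both libraries numbered 6; to -0.19, -0.17, 0.10 and -0.16 in lane 1 alone; and to -0.45 for Pvalb in lane 2 alone. The dorsal effect of Slc5a7 turned to 0.0071 with library totals, and in titles without P Slc5a7 was 0.20, Pvalb 0.25 and Sst -0.025. The interaction turned to 0.24 (Chat) and 0.080 (Slc5a7) by limma-voom and to 0.18 and 0.16 without the libraries numbered 6. The regional difference of Npy in oxycodone was 0.010 with library totals. With 1 library left out, ventral effects ran from -0.067 to 0.38 (Chat), -0.073 to 0.46 (Slc5a7), -0.25 to 0.76 (Pvalb), -0.025 to 0.12 (Sst), -0.13 to 0.075 (Npy) and -0.080 to 0.16 (Nos1), dorsal effects from -0.11 to 0.016 (Chat), -0.12 to 0.12 (Slc5a7) and -0.091 to 0.17 (Lhx6), interactions from -0.42 to 0.037 (Chat), -0.47 to 0.077 (Slc5a7), -0.93 to 0.070 (Pvalb) and -0.038 to 0.21 (Nos1), and the regional difference of Npy in oxycodone from -0.12 to 0.092.

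Over all genes, the dorsal oxycodone count of 30 was 86 by DESeq2, 5 in 1 fit of all libraries, 1 in titles with P, 17 without P, and 1 to 63 with 1 library left out; the ventral count of 0 was 38 by DESeq2 and 61 by limma-voom. The fold rule lowered the regional counts of 6616 and 6785 to 1810 and 1412.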
